A study of Mus musculus with 15 samples.

Results

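Hepatocellular carcinomas (HCC) of mice in which both Trp53 alleles were floxed (Trp53 f/f) were compared with unaffected liver of the same animals by array comparative genomic hybridisation. In this assay DNA of a tissue and DNA of a reference, labelled with different dyes, compete for 60-base probes, and the log2 ratio of tissue over reference gives relative DNA copy number. The tissues were chosen by the genotype in their labels, which gave 9 of the 15 arrays and 5 of the 8 tissues of the series, namely 3 HCC and 2 unaffected livers. HCC 3760-2 and liver 3760 came from a male of 13.8 months, and HCC 4033-1, HCC 4033-2 and liver 4033 from a male of 13.9 months. Both males carried Mad2(f/f) and p53(f/f) alleles, that is both copies of Mad2l1 and both of Trp53 floxed, with Albumin-Cre on a mixed C57BL/6.129 background. The livers therefore carried the same floxed alleles and the same Cre as the tumours and are not wild-type controls. Reference DNA was normal liver of the opposite sex, wild type per the study. Each tissue had a forward array and a dye swap, which were averaged to 1 value, except HCC 3760-2, which had 1 forward array. The comparison with the other genotype used 2 HCC and 1 unaffected liver of a female of 16.4 months, mouse 3151, which was Mad2(f/f) with 1 floxed Trp53 allele, p53(f/+).

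Mad2l1 encodes a core protein of the spindle assembly checkpoint, which holds back anaphase until every chromosome is attached to the spindle. p53 halts or kills cells after DNA damage or faulty mitosis, and cells without it tolerate abnormal chromosome numbers better. Albumin-Cre is active in hepatocytes, so DNA of other cells in the liver or the tumour, such as endothelial and immune cells, keeps the floxed alleles. The measurement is therefore an average over all cells of a tissue. Fewer cells with a change and a smaller change per cell cannot be told apart in it.

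The probe sequences of Trp53, a floxed gene, and Myc, the oncogene on the autosome with the highest levels, are shown in lower case and 5′ to 3′ as the array files give them, because each of these genes was read by 1 probe. Each sequence occurred on 1 distinct probe. Positions are as in the files, whose genome build is not stated. The study describes 1 array probe in the deleted fragment of each floxed gene without giving its identifier, and the array has 1 probe annotated to Trp53 and 1 to Mad2l1.
Trp53 probe, Chr11 69397121 to 69397180: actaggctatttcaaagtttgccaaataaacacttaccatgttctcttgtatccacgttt
Myc probe, Chr15 61818043 to 61818102: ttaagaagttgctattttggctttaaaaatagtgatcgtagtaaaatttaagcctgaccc
The G and C content was 35% in the Trp53 probe and 31.7% in the Myc probe.

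Each tumour lay nearer to the liver of the mouse in its label than to the other liver. At 174 autosomal probes the livers 3760 and 4033 differed by at least 0.8 on the log2 scale after each chromosome's median was subtracted, a criterion chosen after the data were seen. HCC 3760-2 lay nearer to liver 3760 than to liver 4033 at 148 of these probes. HCC 4033-2 lay nearer to liver 4033 at 145 and HCC 4033-1 at 162. Differences between the animals that a tumour shares with its own liver cancel when that liver is subtracted, and those it does not share remain. This subtraction stayed within 1 slide for HCC 3760-2 and HCC 4033-1, and crossed slide and scan day for HCC 4033-2.

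The floxed genes were examined first. The log2 ratio of the Trp53 probe was -0.19 for HCC 3760-2, -2.07 for HCC 4033-2 and -2.03 for HCC 4033-1, against -0.88 in liver 3760 and -0.72 in liver 4033. Both tumours of mouse 4033 were below both livers, and HCC 3760-2 was above both, so the groups overlapped. HCC minus own liver was -1.35 in HCC 4033-2 and -1.31 in HCC 4033-1, but 0.69 in HCC 3760-2. The dye orientations gave the same picture, with -2.26 and -1.88 in HCC 4033-2 and -1.78 and -2.28 in HCC 4033-1. In contrast, the 10 nearest probes around Trp53, which spanned 89.1 kb, averaged -0.06 for HCC 3760-2, -0.28 for HCC 4033-2 and 0.03 for HCC 4033-1, and -0.03 and 0.01 in the livers 3760 and 4033. None of these neighbours was below -0.62 in any of the 5 tissues. The HCC averaged -1.43 ± 1.08 (SD, n = 3) and the livers -0.80 ± 0.11 (SD, n = 2). Their difference of -0.63 did not exceed the spread among the HCC (exact permutation p = 0.4, two-sided). It was -1.25 without HCC 3760-2, -0.31 without HCC 4033-2 and -0.33 without HCC 4033-1, and -0.32 with mice weighted equally in pairs of HCC and own liver, the replicate block by mouse. With 3 against 2 tissues there are 10 splits and no exact p below 0.1 can be reached, here or in the other exact tests.

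The Mad2l1 probe (Chr6, 66489958 to 66490017) was not below the reference in any of the 5 tissues. Its log2 ratio was 0.08 for HCC 3760-2, 0.53 for HCC 4033-2 and 0.59 for HCC 4033-1, against 0.36 in liver 3760 and 0.69 in liver 4033. HCC minus own liver was -0.28 for HCC 3760-2, -0.16 for HCC 4033-2 and -0.10 for HCC 4033-1. Taken from the median of Chr6, the same differences were -0.22, -0.48 and 0.24, the last for HCC 4033-1, whose Chr6 as a whole was below the reference. The difference between groups of -0.12 was within the spread (exact permutation p = 0.7, two-sided). It was 0.04 without HCC 3760-2, 0.04 without liver 4033 and -0.29 without liver 3760, and -0.21 with the replicate block by mouse. For a probe in the deleted fragment a value below the reference would mark recombined DNA. The Mad2l1 probe had no such value in these tissues labelled Mad2(f/f), livers included. Its 10 nearest probes averaged -0.04 for HCC 3760-2, 0.36 for HCC 4033-2, -0.28 for HCC 4033-1 and 0.01 in each liver. The probe was above all of them in both livers and HCC 4033-1, and within their range in HCC 3760-2 and HCC 4033-2. Its level without deletion is thus not known, and the extent of deletion cannot be read from it. In contrast, the Trp53 probe was below all of its 10 neighbours in both livers and both tumours of mouse 4033. In HCC 3760-2 its value of -0.19 lay within the range of those neighbours, -0.33 to 0.30, and cannot be told from no deletion. The reason for the difference between the Mad2l1 and Trp53 probes was not tested.

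**Figure D1:**
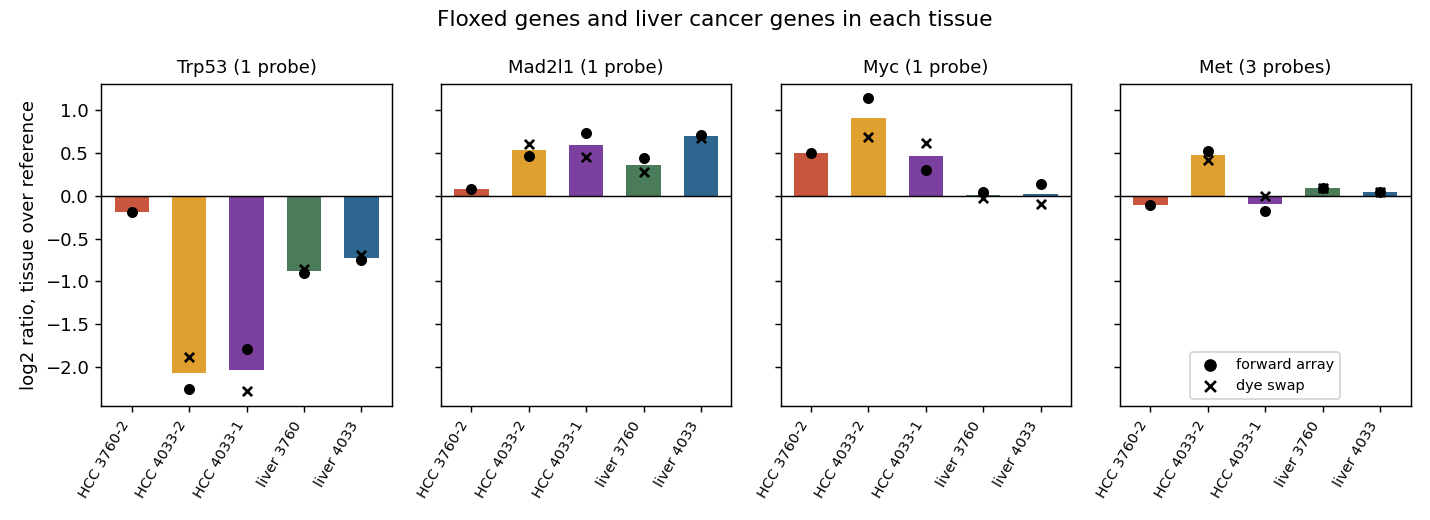
Log2 ratio of tissue over reference (vertical axis) of Trp53, Mad2l1, Myc and Met in 3 HCC and 2 unaffected livers. Bars are the value of a tissue, dots its forward array and crosses its dye swap. The Trp53 bars of HCC 4033-2 and HCC 4033-1 reach -2.07 and -2.03, below the livers, while HCC 3760-2 is at -0.19. Myc is between 0.46 and 0.91 in the HCC and near 0 in the livers.

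Whole-chromosome changes were then counted, with the level of an autosome defined as the mean log2 ratio of its probes and a gain or loss as a level 0.3 or more above or below zero. Gains and losses were present in every HCC and in neither liver. HCC 3760-2 had 2 gains and 1 loss, HCC 4033-2 had 4 gains and 3 losses, and HCC 4033-1 had 6 gains and 7 losses. With arrays centred on the mode in place of the median these counts were 3 and 0, 3 and 4, and 1 and 8. The livers ranged from -0.10 (Chr4) to 0.08 (Chr15) in liver 3760 and from -0.03 (Chr4) to 0.03 (Chr18) in liver 4033. The mean was 7.67 ± 5.03 events (SD, n = 3) in HCC and 0 in liver (exact permutation p = 0.2, two-sided). At a threshold of 0.5 the mean was 1.0 event per HCC. Chromosome levels of the dye orientations differed by at most 0.07 in HCC 4033-2 and 0.04 in HCC 4033-1.

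The aneuploidy score, the sum of absolute levels over 19 autosomes, was 3.26 for HCC 3760-2, 4.36 for HCC 4033-2 and 5.81 for HCC 4033-1, against 0.57 in liver 3760 and 0.21 in liver 4033. All HCC were above both livers. The means of 4.48 ± 1.28 (SD, n = 3) and 0.39 ± 0.25 (SD, n = 2) differed by 4.09 (exact permutation p = 0.1, two-sided), the smallest p that 10 splits give.

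Chr15 and Chr18 were the autosomes gained in all 3 HCC against the reference. With mode centring Chr18 was at 0.15 in HCC 4033-1 and Chr15 alone passed 0.3 in all 3, and relative to own liver no autosome did. Chr15 carries Myc and many genes whose human counterparts lie on chromosome 8q, an arm often gained in human HCC. Its level was 0.36 for HCC 3760-2, 0.72 for HCC 4033-2 and 0.56 for HCC 4033-1, against 0.08 in liver 3760 and 0.01 in liver 4033. The highest autosome of every one of these HCC was Chr15. Limma, fitted to all 8 tissues in 4 groups, called it higher in HCC by 0.50 (SE 0.16, limma adjusted p = 0.0366), and it was the 1 autosome called of 19 (5.26%). The HCC averaged 0.55 ± 0.18 (SD, n = 3) and the livers 0.05 ± 0.05 (SD, n = 2), and limma gave all autosomes the same SE. With mouse as a replicate block the difference was 0.48 (limma adjusted p = 0.127), with the mode as centre 0.41 (limma adjusted p = 0.51), without HCC 4033-2 or with scan day as a block 0.41 (limma adjusted p = 0.091), without liver 3760 0.53 (limma adjusted p = 0.419) and without liver 4033 0.47 (limma adjusted p = 0.831), and under these settings no autosome was called. The exact permutation p was 0.1.

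Chr18, which carries the tumour suppressor genes Smad2 and Smad4, was at 0.32 for HCC 3760-2, 0.43 for HCC 4033-2 and 0.40 for HCC 4033-1, against 0.07 in liver 3760 and 0.03 in liver 4033. The groups did not overlap, and the difference of 0.33 did not pass the correction (limma adjusted p = 0.237). Chr3 was the lowest autosome on average, at -0.24 for HCC 3760-2, -0.37 for HCC 4033-2 and -0.36 for HCC 4033-1, while the livers were at 0.00 and 0.01. Its difference of -0.33 did not pass either (limma adjusted p = 0.237). Chr4 was at -0.14 for HCC 3760-2, -0.45 for HCC 4033-2 and -0.34 for HCC 4033-1, against -0.10 and -0.03 in the livers. In all, 5 autosomes (26.3%) had all 3 HCC above both livers, namely Chr5, Chr14, Chr15, Chr16 and Chr18, and 4 autosomes (21.1%) had them all below, namely Chr3, Chr4, Chr7 and Chr9. Under centring on the mode Chr14 and Chr16 left the first group and the second was the same.

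**Figure D2:**
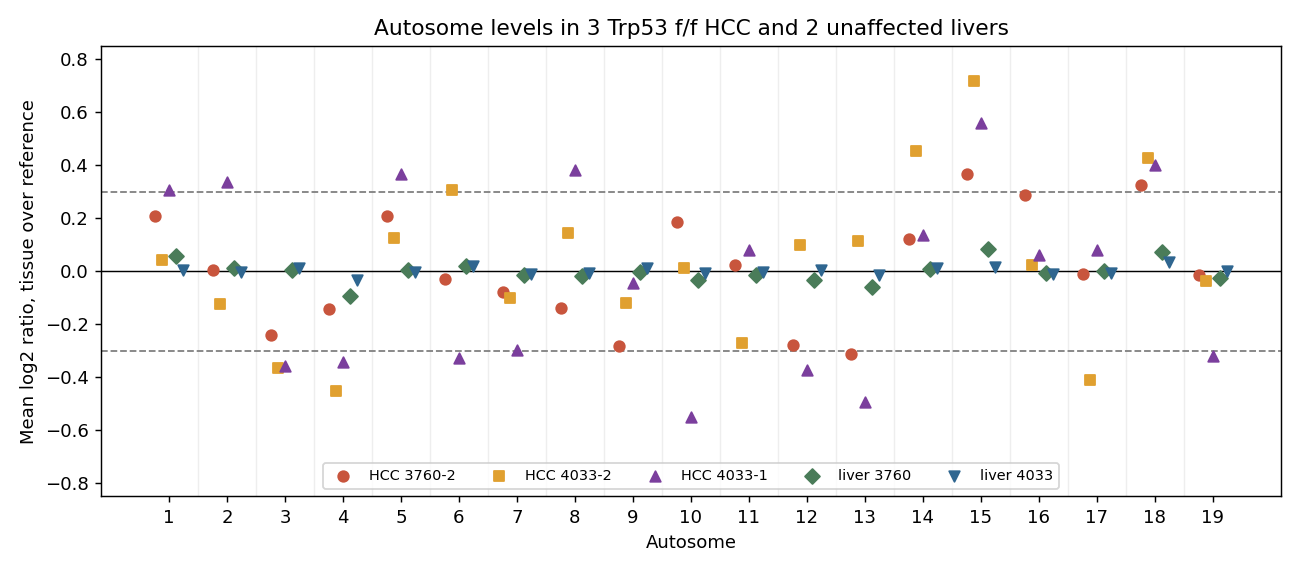
Mean log2 ratio of tissue over reference (vertical axis) for each of 19 autosomes (horizontal axis) in 3 Trp53 f/f HCC and 2 unaffected livers, each point 1 tissue. Dashed lines are at 0.3 and -0.3. The 3 HCC lie above the upper line on Chr15 and Chr18, and no liver passes either line.

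The other chromosomes separated the tumours from each other. Chr1, Chr2, Chr5 and Chr8 were gained in HCC 4033-1 alone, at 0.30, 0.33, 0.37 and 0.38. With mode centring they were at 0.06, 0.09, 0.12 and 0.13 in this tumour, so these gains depend on the zero line. Chr14 was gained in HCC 4033-2 (0.45), where HCC 3760-2 was at 0.12 and HCC 4033-1 at 0.14. Chr10, Chr12 and Chr19 were lost in HCC 4033-1, at -0.55, -0.37 and -0.32, whereas HCC 4033-2 was at 0.01, 0.10 and -0.04. HCC 3760-2 was at 0.19, -0.28 and -0.02, its Chr12 just short of a loss. Chr17 was lost in HCC 4033-2 (-0.41) and was at -0.01 in HCC 3760-2 and 0.08 in HCC 4033-1. Chr13 was lost in HCC 3760-2 (-0.31, but -0.29 with mode centring) and HCC 4033-1 (-0.49) and was at 0.11 in HCC 4033-2. Chr6 was gained in HCC 4033-2 (0.31, but 0.26 with mode centring) and lost in HCC 4033-1 (-0.33), although both tumours grew in the same liver. Chr7, Chr9, Chr11 and Chr16 were past the threshold in none of the 3 HCC, although Chr7 of HCC 4033-1 was just short, at -0.299. With mode centring Chr7 was at -0.55 in HCC 4033-1, Chr11 at -0.31 in HCC 4033-2 and Chr16 at 0.31 in HCC 3760-2.

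With the own liver subtracted, there were 0 events in HCC 3760-2, 6 in HCC 4033-2 and 13 in HCC 4033-1. With mode centring HCC 3760-2 had 2, the gains of Chr15 (0.31) and Chr16 (0.33). Several levels of HCC 3760-2 were just under the threshold, with 0.296 on Chr16, 0.28 on Chr15, 0.25 on Chr18, -0.28 on Chr9, -0.25 on Chr13, -0.25 on Chr12 and -0.24 on Chr3. These shifts ran along the whole chromosome, and 91.8% of Chr15 probes and 93.1% of Chr16 probes were above the liver. In HCC 4033-2 Chr15 was at 0.70, Chr14 at 0.44 and Chr18 at 0.40, and Chr4 was at -0.42, Chr17 at -0.41 and Chr3 at -0.38. In HCC 4033-1 Chr15 was at 0.54, Chr8 at 0.39, Chr18 at 0.37, Chr5 at 0.37, Chr2 at 0.34 and Chr1 at 0.30. The same tumour had Chr10 at -0.54, Chr13 at -0.48, Chr12 at -0.38, Chr3 at -0.37, Chr6 at -0.35, Chr19 at -0.32 and Chr4 at -0.31. On Chr15 99.6% of its probes were above the liver and on Chr10 0.542% were.

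The zero line of HCC 4033-1 was less certain than those of the other HCC. The median probe, on which arrays were centred, lay 0.25 from the most frequent value in this tumour, against -0.02 in HCC 3760-2 and 0.04 in HCC 4033-2. Centred on the mode, HCC 4033-1 had 0 gains and 9 losses relative to its own liver, with Chr15 at 0.29 and Chr10 at -0.80. Over the 3 HCC, 12 of 23 events against the reference were gains with the median (52.2%) and 7 of 19 with the mode (36.8%). Mode centring lowers every probe of HCC 4033-1 minus own liver by the same 0.25, so the order of its chromosomes does not depend on the choice, whereas its counts of genes past 0.3 below do.

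**Figure D3:**
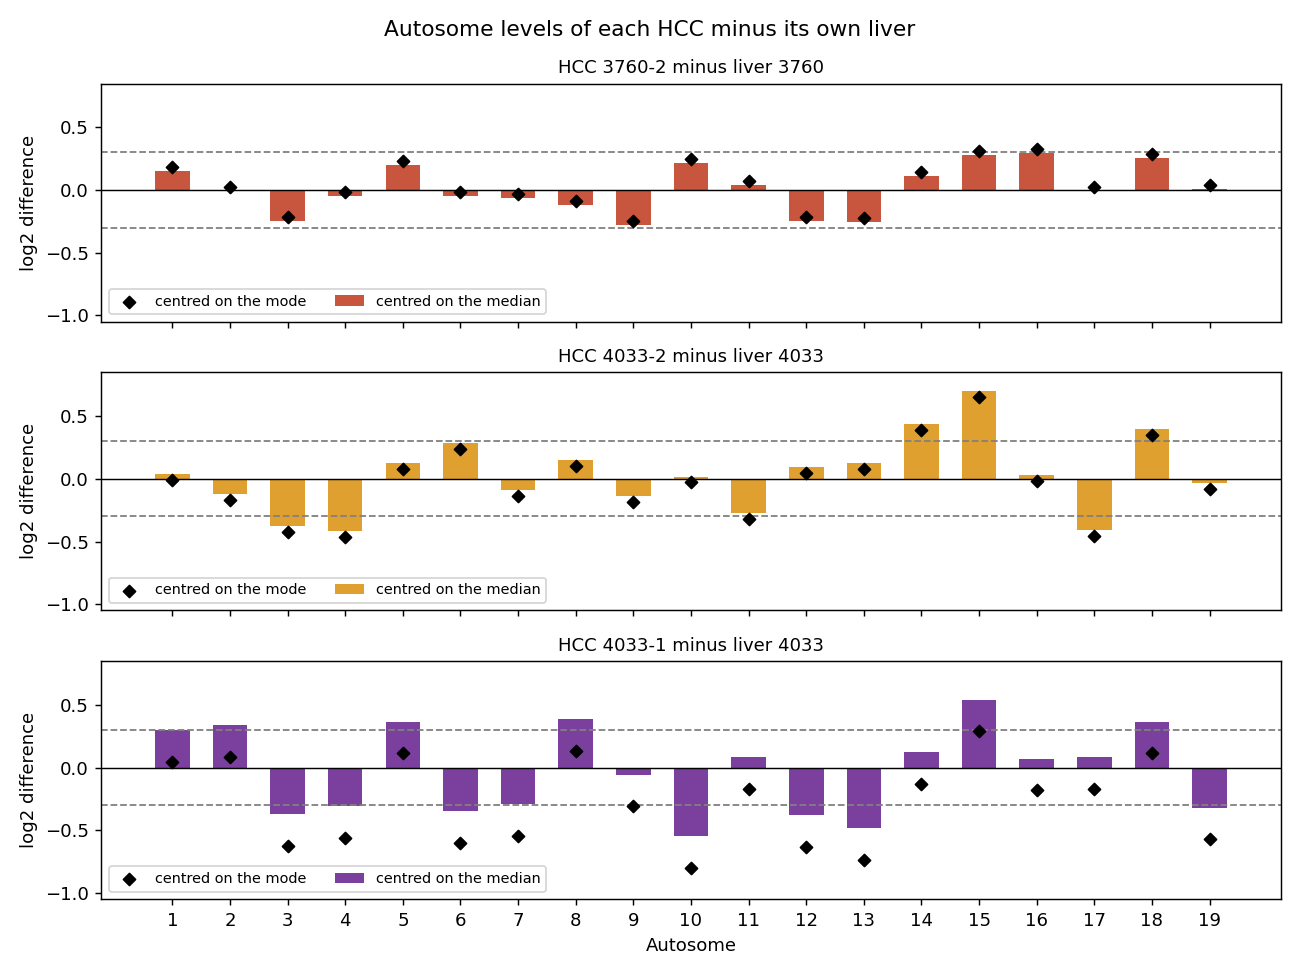
Autosome level of each HCC minus that of its own liver (vertical axis, log2) along the 19 autosomes (horizontal axis). Bars are centred on the median of autosomal probes and diamonds on the mode, and dashed lines are at 0.3 and -0.3. Mode centring takes Chr15 and Chr16 of HCC 3760-2 past 0.3, to 0.31 and 0.33, and shifts HCC 4033-1 down, which then has 0 gains and 9 losses.

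The tumours of mouse 4033 were set side by side because they share a host. They had 7 and 13 events against the reference and shared 4 with the same sign, the losses of Chr3 and Chr4 and the gains of Chr15 and Chr18. These were 4 of 7 events of HCC 4033-2 (57.1%) and 4 of 13 of HCC 4033-1 (30.8%). One autosome, Chr6, was past the threshold in opposite directions. In HCC 4033-2 it passed narrowly, at 0.305. Relative to own liver Chr6 was at 0.29 in that tumour, and with mode centring at 0.26, both short of 0.3. HCC 3760-2, from the other mouse, shared 3 events with HCC 4033-1 (Chr13, Chr15 and Chr18) and 2 with HCC 4033-2 (Chr15 and Chr18). Relative to own liver HCC 3760-2 had 0 events and shared 0 with either, while the tumours of mouse 4033 still shared the same 4. With mode centring Chr13 of HCC 3760-2 was at -0.29 and Chr18 of HCC 4033-1 at 0.15. Neither was then an event, so the Chr18 gain was not shared within mouse 4033 either. Over 19 autosomes, the levels against the reference correlated with r = 0.42 between the tumours of mouse 4033, 0.60 between HCC 3760-2 and HCC 4033-1, and 0.51 between HCC 3760-2 and HCC 4033-2. All share 1 reference type and the median centring, and autosomes are not replicates.

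Breaks within chromosomes were sought by partitioning HCC minus own liver along each autosome. HCC 3760-2 had 2 breakpoints and 17 autosomes without one, HCC 4033-2 had 5 breakpoints and 16 such autosomes, and HCC 4033-1 had 11 breakpoints and 11 such autosomes. These counts do not rank the tumours, because the penalty grew with noise and smaller steps were cut where noise was low. Probe noise, the spread of differences between neighbouring probes, was 0.20 in HCC 3760-2 (1 array), 0.19 in HCC 4033-2 and 0.11 in HCC 4033-1. Most steps were small. A segment of fewer than 50% of the probes of its chromosome that differed from the chromosome median by at least 0.3 was found once in HCC 4033-2, once in HCC 4033-1 and not in HCC 3760-2.

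The breakpoints of HCC 3760-2 divided Chr8 and Chr11, whose means relative to own liver were -0.12 and 0.04. On Chr8 the segment from 3151837 to 74995621 was at 0.01 and that from 75005976 to 131699795 at -0.25, over 1038 and 1113 probes. On Chr11 the segment from 3100146 to 78786315 was at -0.08 and that from 78824307 to 121697849 at 0.17, over 1599 and 1380 probes. Trp53 lay in the first of the Chr11 segments. The other HCC had no breakpoint on Chr11. HCC 4033-1 had one on Chr8 after 71428899, with segments at 0.41 and 0.38, a smaller step of the same direction, and HCC 4033-2 had none there.

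HCC 4033-1 had the largest step of a long segment. Distal Chr13, from 98983461 to 120274738 (21.3 Mb, 308 probes), was at -0.17 against -0.52 and -0.57 for the segments before it, 0.34 above the chromosome median. The same region was 0.01 from the Chr13 median in HCC 3760-2 minus own liver and -0.03 in HCC 4033-2 minus own liver. In HCC 4033-2, Chr3 stepped from -0.31 to -0.46 after 97348384, and a middle segment of Chr9, 44222606 to 66114489, was at -0.27 between flanks of -0.08 and -0.10.

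The partial segment of HCC 4033-2 was short: 9 probes on Chr6 from 54212324 to 54527893 (0.32 Mb), annotated to 8 names that include Chn2, which encodes a GTPase-activating protein for Rac, Prr15, Scrn1 and Fkbp14. It was 0.54 below the Chr6 median in HCC 4033-2 minus own liver (-0.54). Against the reference and relative to the Chr6 median, it stood at 0.61 in liver 4033, 0.53 in HCC 4033-1 and 0.07 in HCC 4033-2, and at -0.08 in liver 3760 and 0.10 in HCC 3760-2. Relative to the rest of Chr6, liver 4033 and HCC 4033-1 were thus high over this region and HCC 4033-2 was not. Without that subtraction the order of the tumours was the other way. The region was then at 0.63 in liver 4033, 0.21 in HCC 4033-1 and 0.40 in HCC 4033-2. With normexp background correction neither this segment nor that on Chr13 was called.

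**Figure D4:**
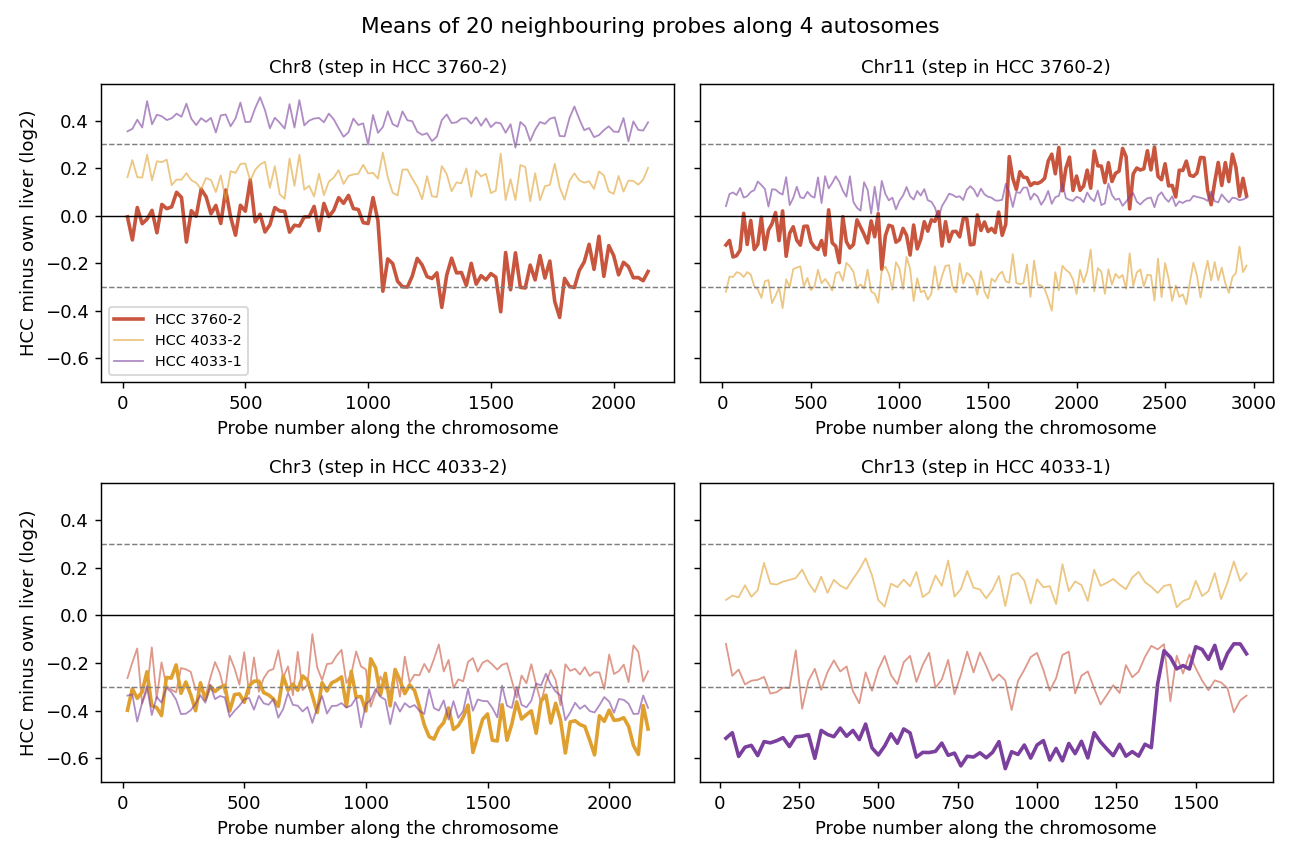
HCC minus own liver (vertical axis, log2) along Chr8, Chr11, Chr3 and Chr13 as means of 20 neighbouring probes, in order of probe number (horizontal axis). Each line is 1 HCC, and the thick line is the HCC whose step the panel title names. Chr8 goes from 0.01 to -0.25 and Chr11 from -0.08 to 0.17 in HCC 3760-2, and Chr13 goes from -0.57 to -0.17 in HCC 4033-1.

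To look below the chromosome, 19973 autosomal genes were compared as the mean of their probes. Limma with Benjamini-Hochberg adjustment called 0 of them (0%). Without adjustment 1215 passed p under 0.05, of which 924 (4.63%) were higher in HCC and 291 (1.46%) lower. The same test on 40726 single probes called 0, with 2069 at an unadjusted p under 0.05. Relative to own liver, 13% of genes were at least 0.3 higher and 12.6% at least 0.3 lower in HCC 3760-2. These shares were 15.8% and 18.6% in HCC 4033-2 and 24.7% and 27.1% in HCC 4033-1. They hold probe noise as well as copy changes, and how much of them is noise was not tested. Of the 19973 genes, 9043 were read by 1 probe. HCC 3760-2, with probe noise of 0.20, had 0 autosome events relative to own liver. The genes above own liver in all 3 HCC were 20% of those tested, and 17.6% were below in all 3. Genes with all 3 HCC above both livers made up 17.1%, and with all 3 below both livers 14.2%.

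Myc, a transcription factor that drives growth, had a log2 ratio of 0.49 for HCC 3760-2, 0.91 for HCC 4033-2 and 0.46 for HCC 4033-1, against 0.01 in liver 3760 and 0.02 in liver 4033. All HCC were above both livers. The difference of 0.61 (SE 0.23) did not pass the correction (limma adjusted p = 0.74), and the exact permutation p was 0.1. Myc followed its chromosome. Relative to the Chr15 median, it was 0.22 above own liver in HCC 3760-2, 0.15 above in HCC 4033-2 and 0.12 below in HCC 4033-1 (-0.12). Met, the receptor for hepatocyte growth factor, was read by 3 probes on Chr6. Its mean was -0.11 for HCC 3760-2, 0.47 for HCC 4033-2 and -0.09 for HCC 4033-1, against 0.09 and 0.05 in the livers 3760 and 4033. HCC 4033-2 stood above the livers and the other tumours below them, and the groups differed by 0.02 (limma adjusted p = 0.975).

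Of 30 mouse Chr15 genes with human counterparts on 8q, 29 were measured. All 29 were above own liver in all 3 HCC, beside 20% of all genes and 755 of the 795 genes tested on Chr15. Their median difference between groups was 0.52 and that of all Chr15 genes 0.51. Limma called none after adjustment, while 27 had an unadjusted p under 0.05, all higher, beside 678 of the 795 on Chr15. The median over the list was 0.24 above own liver for HCC 3760-2, 0.73 for HCC 4033-2 and 0.59 for HCC 4033-1. The highest members were Rrm2b, a ribonucleotide reductase subunit that p53 induces, at 0.56, 0.81 and 0.62 above own liver in HCC 3760-2, HCC 4033-2 and HCC 4033-1, and Trps1, a GATA-type repressor, at 0.58, 0.58 and 0.77. The lowest were Atad2, a chromatin regulator, at 0.22, 0.60 and 0.43, and Pabpc1, the cytoplasmic poly(A)-binding protein, at 0.07, 0.63 and 0.57. With normexp the mean of Trps1 went from 0.64 to 0.36, below those of Atad2 (0.53) and Pabpc1 (0.46). All 29, Atad2 and Pabpc1 included, were at least 0.3 above own liver in both tumours of mouse 4033, against 12 of 29 in HCC 3760-2. Of the 795 genes on Chr15, 774 were so in HCC 4033-2, 775 in HCC 4033-1 and 371 in HCC 3760-2.

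Of 30 liver cancer oncogenes 28 were measured, and limma called none. An unadjusted p under 0.05 was found for 2, both higher, beside 4.63% of all genes. Their median difference was -0.12 beside -0.03 for all genes. Of the 28, 2 were above own liver in all 3 HCC and 10 below, beside 20% and 17.6% of all genes. The members above were Myc and Ptk2, which encodes focal adhesion kinase and lies on Chr15, at 0.17, 0.69 and 0.67 above own liver in HCC 3760-2, HCC 4033-2 and HCC 4033-1. The lowest were Ect2, a Chr3 gene needed for cytokinesis, at -0.48, -0.25 and -0.34, and Mycl (named Mycl1 on the array, Chr4), a relative of Myc, at -0.35, -0.37 and -0.27. In HCC 4033-1 13 of the 28 were at least 0.3 below own liver, beside 27.1% of all genes. Myc was the 1 member at least 0.3 above own liver in all 3 HCC, beside 2.38% of all genes and 346 of the 795 on Chr15.

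Of 28 tumour suppressors 27 were measured, with 0 called by limma. An unadjusted p under 0.05 was found for 3, all higher, beside 4.63% of all genes. Arid2, a subunit of the PBAF chromatin remodeller on Chr15, was 0.32, 0.75 and 0.63 above own liver in HCC 3760-2, HCC 4033-2 and HCC 4033-1. Smad2, a transducer of TGF-beta signals on Chr18, was 0.40, 0.30 and 0.53 above. These were the 2 members of the list at least 0.3 higher in every HCC, beside 2.38% of all genes. With normexp the mean of Smad2 went from 0.41 to 0.25. In all, 7 members were above own liver in all 3 HCC and 3 below, beside 20% and 17.6% of all genes. The lowest members were Trp53, described above, and Arid1a, a BAF subunit on Chr4, at -0.09, -0.41 and -0.32. The median difference of the list was -0.05.

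Of 30 targets and regulators of p53, 27 were measured. None was called, beside 0% of all genes. None had an unadjusted p under 0.05, beside 4.63% of all genes higher and 1.46% lower. None was at least 0.3 from own liver in the same direction in all 3 HCC, beside 2.38% of all genes above and 1.08% below. In a list of 27 such small shares leave few members to find. Of the 27, 4 were above own liver in all 3 HCC and 4 below, beside 20% and 17.6% of all genes. The median difference was -0.09. Pmaip1, which encodes the cell death protein Noxa on Chr18, was 0.29, 0.32 and 0.24 above own liver in HCC 3760-2, HCC 4033-2 and HCC 4033-1, and Tnfrsf10b, a death receptor on Chr14, 0.10, 0.51 and 0.02. The lowest were Trp73, a relative of Trp53 on Chr4, at 0.04, -0.88 and -0.22, and Trp53inp1, also on Chr4, at 0.01, -0.58 and -0.28. With normexp the mean of Trp73 went from -0.35 to -0.08 and that of Trp53inp1 from -0.28 to -0.21. Cdkn1a, the gene of the cell cycle inhibitor p21 on Chr17, was chosen after its values were seen because they lay far apart. Its 1 probe was 0.78 above own liver in HCC 3760-2, -1.16 in HCC 4033-2 and -0.15 in HCC 4033-1.

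Of 27 spindle checkpoint and kinetochore genes 24 were measured, and limma called none. An unadjusted p under 0.05 was found for 2, both lower, beside 1.46% of all genes. The median difference was -0.08. Of the 24, 2 were above own liver in all 3 HCC and 8 below, beside 20% and 17.6% of all genes. Cdca8, the borealin subunit of the chromosomal passenger complex on Chr4, was at -0.34, -0.45 and -0.38 relative to own liver in HCC 3760-2, HCC 4033-2 and HCC 4033-1. Cenpe, a kinetochore motor on Chr3 named because it met the same count, was at -0.35, -0.40 and -0.34. These were the 2 members at least 0.3 below own liver in every HCC, beside 1.08% of all genes. Cdc20, the activator of the anaphase-promoting complex that Mad2 protein inhibits, was the lowest member at -0.83, -0.27 and -0.34, read by 1 probe on Chr4. With normexp its mean went from -0.48 to -0.21, while that of Cdca8 was -0.38, so that it was no longer below Cdca8. The highest were Mad1l1, the binding partner of Mad2 protein, at 0.16, 0.38 and 0.51, and Kntc1, a kinetochore protein that recruits dynein, at 0.45, -0.02 and 0.23, both on Chr5.

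**Figure D5:**
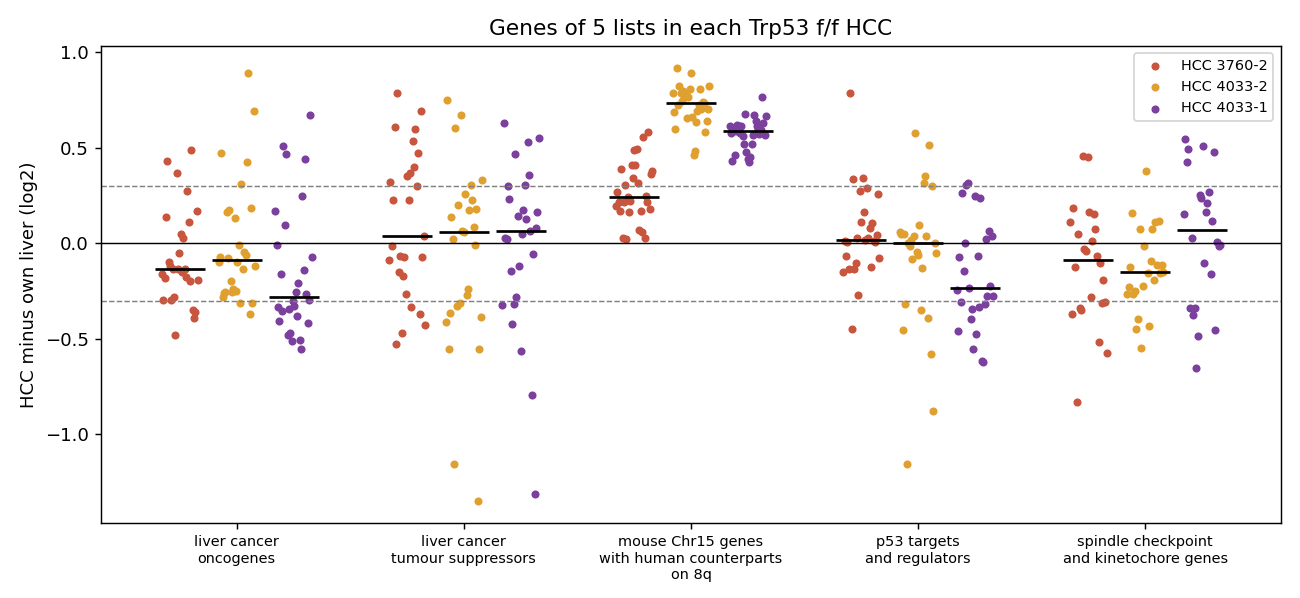
HCC minus own liver (vertical axis, log2) for the measured genes of 5 lists (horizontal axis), each point 1 gene in 1 HCC and each black bar the median of a list in that HCC. Genes on Chr15 with counterparts on 8q are above zero in every HCC, with medians of 0.24, 0.73 and 0.59, while the other lists spread on both sides of zero.

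Genes were next ranked by how far they stood from their own chromosome in all 3 HCC, and the first 5 were named. Among genes of at least 2 probes, the 5 with the largest smallest shift relative to the chromosome median were AK206798, Sult1d1, Spata5, Ppp1r1c and 1110020C03Rik, each read by 2 probes. AK206798 on Chr3 (94490492 to 94515986) was lowest, at -0.51, -0.71 and -0.76 relative to the chromosome in HCC 3760-2, HCC 4033-2 and HCC 4033-1 minus own liver. Its levels against the reference also differed between the livers, with -1.56 in liver 3760 and -0.05 in liver 4033, and were -2.33, -1.14 and -1.18 in the same HCC. Its mean HCC minus own liver was -0.99, but -0.68 with normexp background correction and -0.33 over probes well above background on all arrays. Sult1d1, a sulfotransferase on Chr5, was 0.23, 0.23 and 0.24 above its chromosome. Spata5, an AAA ATPase on Chr3, was 0.37, 0.27 and 0.23 above, Ppp1r1c, a phosphatase inhibitor on Chr2, 0.21, 0.23 and 0.25, and 1110020C03Rik on Chr4 0.31, 0.25 and 0.21. None of the 5 was called (lowest limma adjusted p = 0.74).

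The f/f tumours were set against those of the mouse with 1 floxed Trp53 allele by the same contrast, HCC minus liver. Limma found 0 of 19 autosomes (0%) that differed by genotype. Chr12 was the nearest: relative to own liver it was at -0.25, 0.10 and -0.38 in HCC 3760-2, HCC 4033-2 and HCC 4033-1, and at 0.44 and 0.54 in the f/+ tumours HCC 3151-2 and HCC 3151-1. The f/+ tumours had higher values than every f/f tumour there, and the difference was -0.66 (SE 0.26, limma adjusted p = 0.247). Without HCC 4033-2 or with scan day as a block it was -0.80 and called (limma adjusted p = 0.0115). Chr15 was at 0.50 and 0.33 relative to own liver in the f/+ tumours, and the contrasts differed by 0.09 (SE 0.26, limma adjusted p = 0.785). The aneuploidy scores of the f/+ tumours, 4.48 and 3.72, lay within the range of the f/f tumours. For Trp53 the f/+ tumours were at -1.06 and -1.14 and their liver at -0.07, and for Mad2l1 at -1.22 and -0.71 with their liver at 0.01, whereas no f/f tissue was below 0 there. In the f/+ group genotype, sex, age and mouse cannot be told apart. Scan day was nearly tied to them as well. All f/+ arrays and those of HCC 4033-2 were scanned on day 2, and the other f/f arrays on day 1.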

How the data were processed

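Array comparative genomic hybridisation of genomic DNA was analysed on 2-colour Agilent mouse arrays, scanned and extracted by the authors with Feature Extraction 9.1.3.1. The deposited scanner files hold processed intensity values, background-subtracted and dye-normalized by that software, and the deposited value table holds log10 ratios, which equal those of the scanner files with the sign turned on dye swaps. The genome build of the probe positions is not given in the sources used here.

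From the processed intensities, log2 tissue over reference was computed for 42404 distinct probes, turned on dye swaps and centred on the median of 40726 autosomal probes. Repeat spots and dye orientations were averaged, so that a tissue is 1 replicate. On the f/f arrays the signal was 4.54 to 7.95 times the background. Precision is limited by how few tissues there are, and tumours of 1 mouse share their animal. Groups came from the labelled genotype and tissue. Limma 3.58.1 (R 4.3.3; lmFit, eBayes, Benjamini-Hochberg, threshold 0.05) was fitted to autosome or gene means of all 8 tissues in 4 groups and tested on simulated data. Single values were compared by exact permutation of 5 tissues. Breakpoints came from optimal partitioning (penalty 3, at least 5 probes). Python 3.11.15 was used for the rest. The X chromosome, whose reference was of the opposite sex, was left out.

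Named genes were Trp53, Mad2l1, Myc and Met, the 2 highest and 2 lowest members of each list by mean HCC minus own liver, and the 5 genes of at least 2 probes with the largest shift of 1 sign away from their chromosome in all 3 HCC. Members, lists and tests were chosen with earlier results of these data known. HCC and liver are paired by the animal in the labels. Deviations from group means correlated with those of the own liver at r = 0.15 in HCC 3760-2, 0.04 in HCC 4033-2 and 0.21 in HCC 4033-1. Such deviations cancel within a group, so the 3 values are not independent of each other. Alternatives were normexp background correction (offset 50), mode centring, forward arrays alone, the deposited log ratios, a filter on dim probes, mouse or scan day as a block, the f/f tissues alone, other thresholds and leaving out each tissue.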

Additional observations from a re-analysis of the deposited data

Results flagged for a closer look

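Chr9 had opposite signs relative to own liver in the f/f and f/+ tumours. HCC minus own liver was -0.28 in HCC 3760-2, -0.13 in HCC 4033-2 and -0.05 in HCC 4033-1, and 0.06 and 0.11 in the f/+ tumours HCC 3151-2 and HCC 3151-1. Every f/f tumour was below its liver and every f/+ tumour above, and the means of -0.16 and 0.09 differed by -0.24. Beyond these signs, the limma interaction gave -0.24 (SE 0.26, limma adjusted p = 0.785) and did not pass the correction. With mode centring the f/f values were -0.25, -0.18 and -0.31 and the f/+ values -0.04 and 0.21, so the signs were no longer wholly opposite.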

How the results depend on the processing

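The count of autosomes called (1, Chr15) was 0 with the replicate block by mouse, with scan day as a block and with mode centring, and 0 to 1 when a tissue was left out. Over 14 alternatives the Chr15 difference was 0.41 to 0.59 and called in 8. Scan day as a block leaves the same f/f estimate as leaving out HCC 4033-2, the only f/f tissue of its day. No gene was called except 1 to 4 without a liver, giving 0 to 4 over the leave-outs: AK206798 without liver 3760, and AK122497, J00393, Tbc1d15 and Srp14 without liver 4033, where 1 liver stood for the group and was taken to vary like the others. Autosomes that differed by genotype numbered 1 with scan day as a block and 0 to 1 over the leave-outs. The Mad2l1 difference (-0.12) reversed to 0.037 without HCC 3760-2 and to 0.042 without liver 4033, with leave-outs from -0.29 to 0.042. The Trp53 difference kept its sign, from -1.25 to -0.31. The score difference was 3.42 to 4.69 over the leave-outs and 3.78 with the replicate block by mouse. Events per HCC were 5.0 to 10.0 over the leave-outs, 6.5 with the replicate block by mouse, and 10.3 and 1.0 at thresholds of 0.2 and 0.5. The replicate block by mouse changed no call other than Chr15.

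Partial segments per HCC (0.667) numbered 0 with normexp, 0.333 with probes well above background on all arrays, 3.33 with penalty 2, 1.33 with a minimum of 3 probes, 1.33 at a threshold of 0.2 and 0.5 to 1.0 over the leave-outs. The share of gains among events was 52.2% against 36.8% with mode centring and 60% with normexp, and relative to own liver 47.4% against 27.8% and 61.1%. The mean of HCC minus own liver was recomputed for 26 named genes under 206 alternatives, and 11 values moved by more than the spread between HCC. The sign changed in 9, of Met, Spata5 and 1110020C03Rik. The causes of these changes were not tested. Trp73 and Spata5 had no value after the filter on dim probes.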
